A study of Mus musculus with 9 samples.

Results

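The 10 genes that carried the most extrachromosomal circular DNA (eccDNA) for their length in mouse hearts are described across 9 Circle-seq libraries. They are Sp110, Sfi1, Cdc7, Fam115c, Prkar1a, Mkrn1, Mep1b, Coq7, Gpt2 and Mroh2a. Among 8953 genes of at least 20 kb with a circle they were chosen by the number of circles summed over the 9 libraries per Mb of gene, so their density is the reason for their choice and not a result. They hold 66 distinct pairs of circle and gene, of 68857 such pairs in 14085 genes. All libraries came from hearts of wild type C57BL/6J mice, with 3 libraries each from embryonic hearts (E18, embryonic day 18), neonatal hearts (3d, 3 days) and adult hearts (8w, 8 weeks). The labels call the cells cardiocytes, and circular DNA gives no expression against which to check that name. At least 1 split read, a read that crosses the closing point of the loop, was needed to list a circle in a library. Libraries held 11377 to 846374 split reads and 3931 to 42963 circles. Circles with a single read made up 60.5% of 8w replicate 1 and 37.9% of 3d replicate 1, against 6.21% to 16.7% of the other 7 libraries. Coordinates are those of GRCm38/mm10 and count from 1.

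An eccDNA is a closed loop of chromosomal sequence that lies apart from the chromosomes, mostly far too short to hold a gene. In Circle-seq, circles are purified from digested tissue (here by alkaline treatment and a column), copied by phi29 polymerase, and placed on the genome by reads across their junction. The 10 genes share no pathway. They include the replication kinase Cdc7, the centrosome protein Sfi1, the nuclear body protein Sp110, the ubiquitin ligase Mkrn1, a regulatory subunit of protein kinase A (Prkar1a) and the mitochondrial enzymes Coq7 and Gpt2.

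Of the 62 circles of up to 100 kb in these genes, 3 touched a RefSeq promoter window (250 bases before to 50 after a gene start, GRCm38.p6). The sequences of 2 windows are shown because they place a circle at the start of the gene or just inside it. A circle of 348 bp in Prkar1a (chr11:109649065-109649412) held 1 window whole, chr11:109649113-109649412 on the plus strand. In it, capitals mark CGTCA, the reverse complement of TGACG, the short form of the cAMP response element. A circle of 455 bp in Fam115c, named Tcaf2 in RefSeq (chr6:42644552-42645006), reached 15 bases into the window chr6:42644992-42645291 on the minus strand, and capitals mark those bases. This circle lay inside the gene and did not reach its RefSeq start at 42645041. The table's own model of Fam115c starts further out, at 42645254, so much of this window lies inside that model.
Prkar1a window: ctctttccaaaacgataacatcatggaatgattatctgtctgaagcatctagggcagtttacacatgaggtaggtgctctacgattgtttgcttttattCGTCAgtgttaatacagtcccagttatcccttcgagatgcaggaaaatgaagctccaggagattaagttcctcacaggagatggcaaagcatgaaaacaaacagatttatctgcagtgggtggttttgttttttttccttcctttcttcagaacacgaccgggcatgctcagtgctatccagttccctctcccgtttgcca
Fam115c window: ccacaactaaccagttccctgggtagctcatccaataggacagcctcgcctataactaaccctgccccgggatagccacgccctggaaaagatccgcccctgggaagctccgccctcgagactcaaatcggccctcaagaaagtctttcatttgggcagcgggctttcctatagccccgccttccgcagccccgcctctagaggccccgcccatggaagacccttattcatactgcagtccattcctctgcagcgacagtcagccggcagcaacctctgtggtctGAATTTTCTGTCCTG
The Prkar1a window was 43.3% G and C with 7 CG pairs, and the Fam115c window 58.0% with 14, beside medians of 52.7% and 7 over all 32851 windows. Both strands were searched for the GC box GGGCGG, the CCAAT box, the TATA box (TATAAA), the E-box (CACGTG), the full cAMP response element (TGACGTCA) and its short form (TGACG), which lies inside the full one. The Prkar1a window held 1 TGACG and no other, and 20.8% of all windows hold TGACG. The Fam115c window held 3 GGGCGG (in 35.7% of all windows) and 1 CCAAT (37.4%), all outside its circle. The Prkar1a circle also shared 8 bases with the window of an earlier RefSeq start of the gene. The table's own gene model starts later, at 109649405, so the authors' overlap column gives this circle only 7 bp of Prkar1a. The third circle, of 366 bp in Prkar1a, covered 172 bases of the window of another RefSeq gene, Gm39443.

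The density of the 10 genes ran from 397 circles per Mb in Mroh2a to 547 per Mb in Sp110, against a median of 82.6 per Mb over the 8953 genes. The first place of Sp110 depended on its gene model, which is 21.9 kb long here. RefSeq draws this gene longer, at 40.1 kb. When RefSeq spans were used for all genes, Sp110 had 374 circles per Mb and fell to rank 12. Just inside the limit lay Gpt2 with 400.2 and Mroh2a with 397 per Mb. Just outside lay Dnajc25 with 393, Lpo with 366 and Mest with 361 per Mb. A single circle in a single library is worth 28.3 per Mb in Mroh2a and 49.7 per Mb in Cdc7, so the order of neighbours rests on 1 circle. Leaving out 1 library cannot raise such a sum, and it lowered 5 genes by 1.5 times or more. Of all circles summed over libraries, 3d replicate 1 held 17.7%, E18 replicate 1 held 19.4% and 3d replicate 3 held 23.6%. Without 3d replicate 1 Sp110 had 365 per Mb (rank 3), Fam115c 270 (rank 24) and Mroh2a 227 (rank 72). Without E18 replicate 1 Mroh2a had 255 (rank 47), and without 3d replicate 3 Cdc7 had 298 (rank 17) and Prkar1a 296 (rank 18). The sum also pools stages with unequal totals (54797 in the E18 libraries, 101805 in the 3d libraries, 25297 in the 8w libraries). Ranked within a stage, 3 of the 10 genes were among the 10 densest at E18, 7 at 3d and 1 at 8w, with Cdc7 at rank 1200 for E18 and Coq7 at rank 393 for 3d. Sfi1 stood apart from the other 9 by its length, 61.6 kb against 20.1 to 35.3 kb, and by its 31 circles against 9 to 14. In 20 kb genes a few circles suffice: Prkar1a was included with 9.

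**Figure D1:**
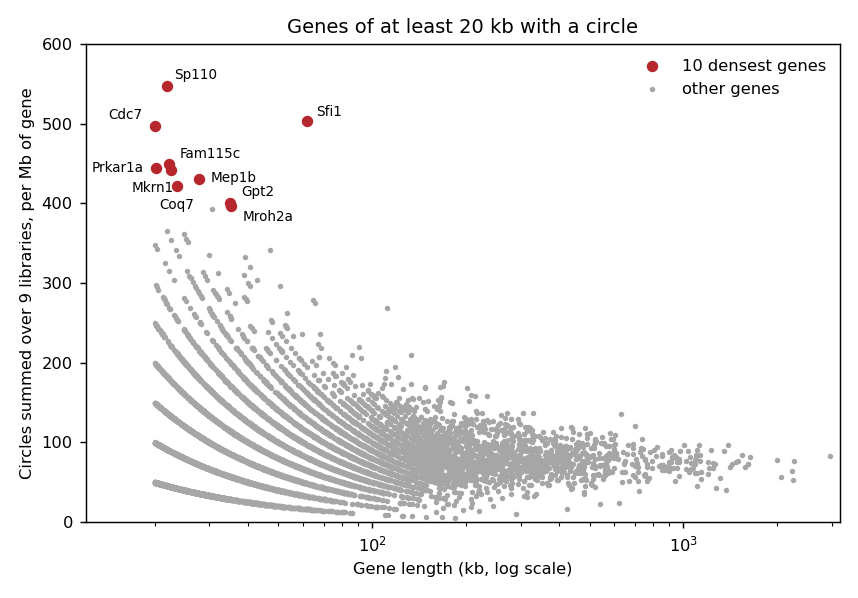
Circles summed over the 9 libraries per Mb of gene (vertical axis) against gene length in kb (horizontal axis, log scale), 1 point per gene of at least 20 kb with a circle. The 10 densest genes lie between 397 and 547 per Mb, and 9 of them are under 36 kb long, where each further circle moves a gene up by a visible step.

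These genes combined several distinct circles with circles seen in more than 1 library. Of their 66 circles 39 (59.1%) were in 2 or more libraries and 13 (19.7%) in 3 or more, against 19.6% and 1.81% of the 61438 circles in the other genes of at least 20 kb. Listings of a circle in a library by a single read made up 29.5% of the listings in the 10 genes, against 15.4% in the other genes. A sum over libraries rewards circles in several libraries, so this is part of how the genes were chosen and was not tested. The library 3d replicate 1 held 36 of the 66 circles (54.5%), 13 of them by a single read, against 21.7% of the circles in the other genes. These shares also rise with the number of libraries per circle, which is part of the choice. Of the listings, 27.3% were in 3d replicate 1, against 17.9% in the other genes. Without 3d replicate 1, 18 of 63 circles (28.6%) were in 2 or more libraries, against 9.02% in the other genes. The part of that library in the density was not tested. Counting each circle once, Mkrn1 ranked 1 with 353 circles per Mb, Fam115c 2 and Mep1b 4, while Coq7 ranked 776 with 127 per Mb and Sfi1 398 with 146. These ranks count circles over 100 kb, 2 in Mkrn1 and 1 in Fam115c, and were not worked out without them.

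Cdc7, the kinase that with its partner Dbf4 starts DNA replication (chromosome 5, 106964322 to 106984432, plus strand, 20.1 kb), held 5 circles in the last part of the gene. Their midpoints lay from 11.1 to 20.1 kb after its start, and the last of them, of 1198 bp, ran past the gene's end with 587 bp inside. By library there were 1, 0 and 0 circles in E18 replicates 1 to 3, 1, 2 and 4 in the 3d replicates, with 1, 0 and 1 in those of 8w. The neonatal libraries thus held 7 of its 10 circles, beside 101805 of the 181899 circles of all genes and regions summed over libraries. They held 62 of its 65 split reads, 15 of them in 3d replicate 2 and 46 in 3d replicate 3. The circle of 1198 bp (106983846 to 106985043) was in 3 libraries and had the most reads, with 14 in 3d replicate 2, 13 in 3d replicate 3 and 1 in 8w replicate 1.

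Sfi1 encodes a centrosomal protein that binds centrins (chromosome 11, 3131850 to 3193463, minus strand). It was the only one of the 10 genes with a circle in every library: 5, 2 and 3 at E18, 9, 3 and 3 at 3d, and 3, 2 and 1 at 8w. All of its 9 distinct circles were in 2 or more libraries, and all 9 were in 3d replicate 1. The most widely shared, of 342 bp (3185165 to 3185506), was in 6 libraries with 61 and 1 reads in E18 replicates 1 and 3, 24, 14 and 2 in the 3d replicates, plus 1 in 8w replicate 2. The circle with the most reads, of 748 bp (3180990 to 3181737), had 109 of its 125 reads in E18 replicate 1. In the adult, 6 circles had 30 reads, of which 25 fell on a circle of 88 bp (3166795 to 3166882) in 8w replicate 2, and the other 5 had a single read each. Whether sequence copies of Sfi1 or Sp110 elsewhere in the genome share reads with them was not tested, since no genome sequence was used here.

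Sp110, a nuclear body protein of the interferon response (chromosome 1, 85576899 to 85598817, minus strand), held only 4 circles, each in 2 to 4 libraries. The libraries held 2, 0 and 1 at E18, 4, 1 and 2 at 3d, and 0, 0 and 2 at 8w. The circle in the most libraries, 363 bp long (85592143 to 85592505), had 76 of its 87 reads in E18 replicate 3 and lay inside another of 571 bp (85591995 to 85592565). Both were in E18 replicate 1, 3d replicate 1 and 3d replicate 3. The circle with the most reads, 1795 bp long (85587294 to 85589088), had 106 reads in 3d replicate 2 and a single read in 3d replicate 1 and in 8w replicate 3. In the adult, 21 of 22 reads came from a circle of 90 bp (85584206 to 85584295) in 8w replicate 3.

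Mkrn1, a makorin ubiquitin ligase (chromosome 6, 39397804 to 39420462, minus strand), had few reads. It was the richest in distinct circles for its length with its 2 circles of several Mb counted. Its other 6 circles in 22.7 kb were less dense than the 8 of Mep1b in 27.9 kb, of which 0 exceed 100 kb. The rank of Mkrn1 without the 2 large circles was not worked out. Its 8 circles had 55 split reads in all, and 6 were in 1 library. By library there were 3, 0 and 0 at E18, 2, 3 and 2 at 3d, and 0 at 8w. Its 6 short circles were centred between 48.0% and 88.1% of the way along the gene, and the other 2 were of several Mb. The larger of those was in 2 libraries with 18 reads, the most of any circle of the gene.

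Prkar1a, the type I alpha regulatory subunit that holds protein kinase A inactive until cAMP binds (chromosome 11, 109649405 to 109669656, plus strand), held 5 circles with 132 reads. The libraries held 1, 2 and 0 at E18, 2, 1 and 3 at 3d, and 0 at 8w. The circle at its start, shown above, had 12 reads in E18 replicate 1 and 1 in 3d replicate 1. The circle with the most reads, 345 bp long (109662447 to 109662791), had 53 in 3d replicate 3 and 2 in 3d replicate 1. The one of 366 bp (109653524 to 109653889) had 50 reads, all in 3d replicate 2.

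Fam115c, a partner of the cold-sensing channel Trpm8 (chromosome 6, 42623019 to 42645254, minus strand), held 7 circles with 84 reads. By library there were 1, 1 and 1 at E18, 4, 0 and 3 at 3d, and 0 at 8w. Of its 6 short circles, 5 had their midpoint within the first 7.44 kb of the gene. The circle in the most libraries and with the most reads, 362 bp long (42643943 to 42644304), had 23 reads in E18 replicate 1 and 1 in 3d replicate 1. Circles of 375 and 545 bp that overlap by 168 bp (42637628 to 42638002 and 42637835 to 42638379) were both in 3d replicates 1 and 3, with 3 and 13 reads for the first and 10 and 13 for the second.

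Coq7, a hydroxylase of ubiquinone synthesis (chromosome 7, 118509659 to 118533356, minus strand), held 3 distinct circles, and 1 of them made up 8 of its 10 circles over the libraries. This circle of 162 bp (118520790 to 118520951) was in 8 of the 9 libraries, with 5, 1 and 1 reads at E18, 2, 3 and 0 at 3d, and 2, 1 and 6 at 8w. It lay inside a circle of 1437 bp (118520354 to 118521790) that was in 3d replicate 2 alone with 11 reads. The third circle of the gene, of 659 bp (118525035 to 118525693), had 99 reads in E18 replicate 1 and none elsewhere. E18 replicate 1 thus held 104 of the 131 reads of Coq7, while its circles numbered 4 in E18, 3 in 3d and 3 in 8w libraries.

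Gpt2, the mitochondrial alanine aminotransferase (chromosome 8, 85492576 to 85527560, plus strand), held 9 circles with 260 reads. The libraries held 3, 1 and 2 at E18, 4, 1 and 1 at 3d, and 1, 0 and 1 at 8w. The circle with the most reads and in the most libraries, 351 bp long (85527368 to 85527718), had 91 reads in 3d replicate 1 and 1 in E18 replicate 3, and 193 bp of it lay inside the gene. Another, of 326 bp (85526712 to 85527037), lay close to it, with 76 reads in E18 replicate 1 alone. The adult had a circle of 390 bp in 8w replicate 1 (85502054 to 85502443, 7 reads) that was in no other library, and 2 reads of a circle of 1042 bp in 8w replicate 3 (85519731 to 85520772).

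Mep1b, the beta subunit of the metalloprotease meprin (chromosome 18, 21072344 to 21100199, plus strand), held 8 circles with 111 reads. By library there were 2, 1 and 1 at E18, 3, 2 and 3 at 3d, and 0 at 8w. A group of 3 circles, of 404, 402 and 336 bp, overlapped between 21086664 and 21087282 near the middle of the gene. The shortest of them (21086937 to 21087272) was in 4 libraries, with 11 reads in E18 replicate 1 and 10, 1 and 2 in the 3d replicates. The longest, with 25 reads in 3d replicate 3, had the most reads of the gene.

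Mroh2a, of the maestro heat-like repeat family (chromosome 1, 88226986 to 88262289, plus strand), held 8 circles with 165 reads. The libraries held 5, 0 and 0 at E18, 6, 2 and 1 at 3d, and 0 at 8w. E18 replicate 1 held 138 of the reads, and 57 of these fell on a circle of 556 bp (88229460 to 88230015), which had the most reads and was in 2 libraries. Of the 6 circles in 3d replicate 1, 4 had a single read there.

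**Figure D2:**
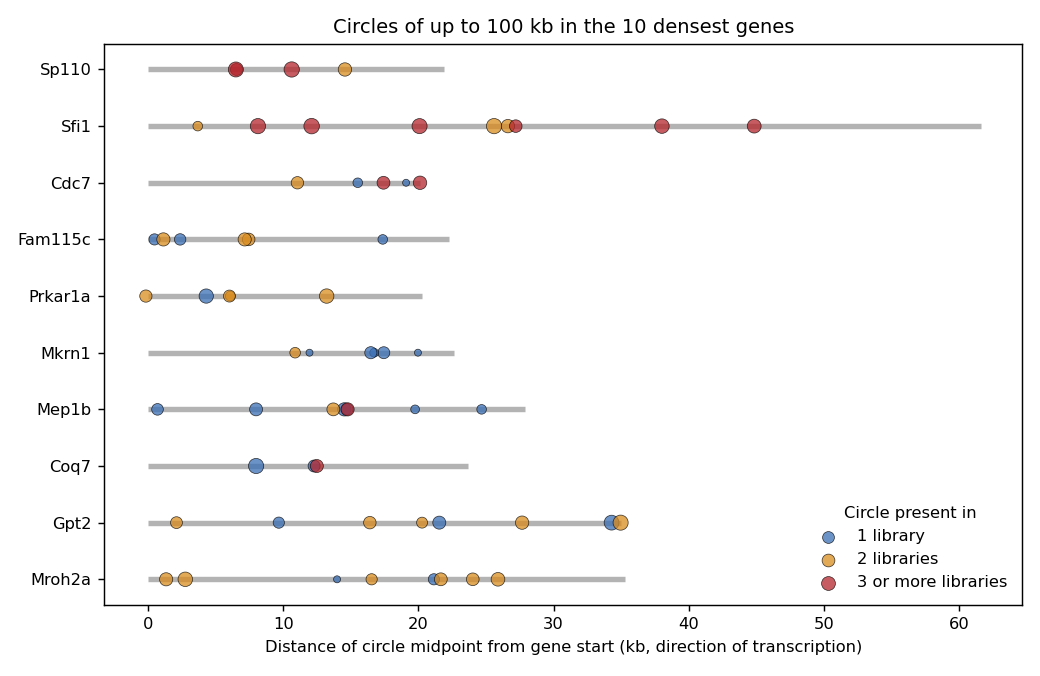
Midpoints of the 62 circles of up to 100 kb along the 10 genes, in kb from the gene start in the direction of transcription. Grey bars are the genes, colour gives the number of libraries with the circle, and a larger point has more split reads. Circles of Cdc7 lie in the last part of the gene and most midpoints of Fam115c in the first 7.44 kb, while those of Sfi1 spread from 3.67 to 44.9 kb.

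Across the stages every library held circles of these genes, and no stage was without them. The 10 genes together had 25, 8 and 9 circles in E18 replicates 1 to 3, 36, 17 and 22 at 3d, and 6, 3 and 6 at 8w. The mean was 14 ± 9.54 for E18, 25 ± 9.85 for 3d and 5 ± 1.73 for 8w (SD, n = 3). Set against all circles of the library, the number was 8.17 ± 0.950 per 10000 circles for E18, 7.56 ± 3.20 for 3d and 8.78 ± 6.62 for 8w (SD, n = 3), and the stages overlapped. The adult spread was the widest, with 15.3, 2.04 and 9.03 per 10000 in 8w replicates 1 to 3. Split reads of the 10 genes were 716, 29 and 110 at E18, 334, 295 and 246 at 3d, and 13, 27 and 32 at 8w. Per 10000 split reads of the library these were 8.46, 4.55 and 5.91 at E18, 10.8, 8.64 and 3.70 at 3d, and 11.4, 1.39 and 4.76 at 8w. Scaled in this way the stages overlapped, and the highest and the lowest library were both adult. The labels mark the libraries as biological replicates and do not say whether each is 1 animal or a pool, so p-values measure the spread between these libraries.

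All 10 genes had a circle at E18 and at 3d, and 5 had one at 8w. Sfi1, Sp110, Cdc7, Coq7 and Gpt2 were present in the adult with 6, 2, 2, 3 and 2 circles. Fam115c, Prkar1a, Mkrn1, Mep1b and Mroh2a had none in any of the 3 adult libraries, against 7, 6, 7, 8 and 9 circles in the neonatal libraries. At this depth a difference could not be detected for them. The 3 adult libraries held 25297 circles, so a count of 0 allows up to 1.19 circles per 10000 (counting error only), while the 5 genes had 0.589 to 0.884 per 10000 at 3d and 0.547 to 0.912 at E18. Of 1263 other genes with 9 to 14 circles in all, 298 (23.6%) also had none at 8w, and 5 of the 9 genes in that range among the 10 had none.

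**Figure D3:**
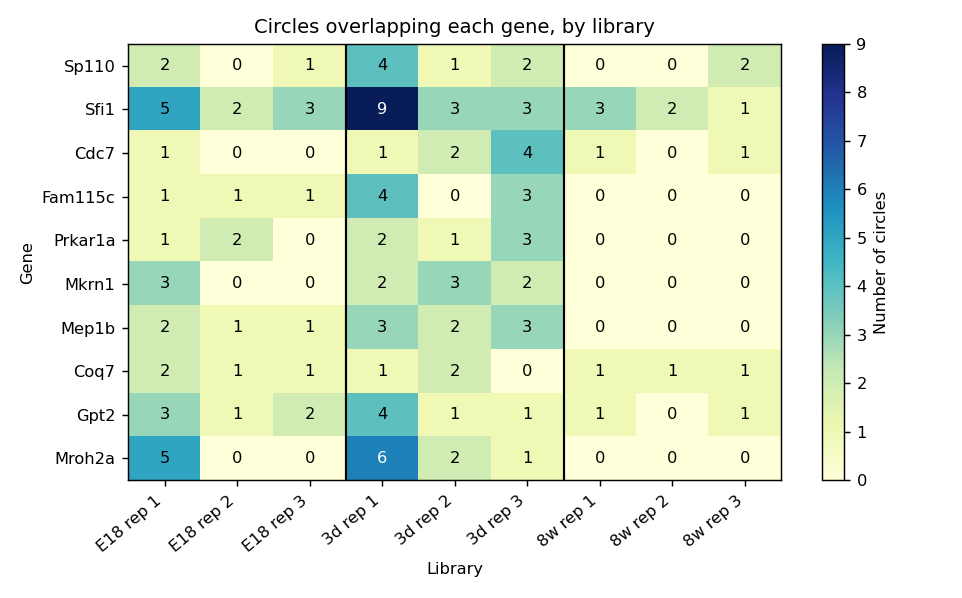
Number of circles overlapping each of the 10 genes (rows) in each library (columns, with lines between the stages E18, 3d and 8w). Sfi1 has a circle in all 9 libraries, Coq7 in 8, and Fam115c, Prkar1a, Mkrn1, Mep1b and Mroh2a have none in the 3 adult libraries.

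None of the genes passed a test between stages. The number of circles per gene was fitted with the quasi-likelihood test of edgeR over 2174 genes with at least 10 circles, which took in 9 of the 10 genes, since Prkar1a had 9 circles. In 8w over 3d, 8w over E18 and 3d over E18, 0 of the 9 passed at an adjusted p of 0.05, against 0% of all genes tested in each. At an unadjusted p under 0.05 there were 2 of 9 in 8w over 3d (Mep1b and Mroh2a), beside 13% of all genes, 1 of 9 in 8w over E18 (Mroh2a), beside 8.6%, and 0 of 9 in 3d over E18, beside 4.83%. Mep1b and Mroh2a had no adult circle. DESeq2 also called 0 of the 9 in each comparison, with 0 of 9 at an unadjusted p under 0.05. Scaling edgeR by library totals alone also left 0 of 9 at that unadjusted p in each comparison. Beside them were 100 of 2174 genes in 8w over 3d, 139 in 8w over E18 and 98 in 3d over E18. Each log2 change has the median log2 change of all genes subtracted, which was -0.85 for 8w over 3d, -0.62 for 8w over E18 and 0.28 in 3d over E18. The SE and p belong to the change before that subtraction.

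Coq7 had the highest relative change in 8w over 3d, at 2.04 (SE 1.19, edgeR adjusted p = 0.682), from 1 circle in each adult library, against 1, 2 and 0 in the neonatal ones, and it was 1.29 without 3d replicate 3. Sfi1 was at 0.86 (SE 0.753, edgeR adjusted p = 0.988) in the same comparison, and Gpt2, Cdc7 and Sp110 lay between 0.42 and 0.62. In 3d over E18 Cdc7 was the highest at 1.52 (SE 1.23, edgeR adjusted p = 0.983) and Coq7 the lowest at -1.26 (SE 1.08, the same adjusted p), and the other 7 genes lay between -0.92 and 0.20. In 8w over E18 the 5 genes with adult circles ran from -0.25 in Gpt2 to 1.99 in Cdc7 (edgeR adjusted p = 0.831 for Cdc7, whose value was 3.30 without 8w replicate 2). None of these changes passed the test. No fitted change is given for the 5 genes without adult circles, since it would rest on the prior count. In simulated circle counts for 8w over 3d on these 2174 genes, 57 of 100 genes raised 8-fold in the adult and 100 of 100 raised 64-fold were called, as were 15 of 1974 unchanged genes. Losses were not simulated.

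Split reads gave the same absence of calls. Summed over the circles of a gene and fitted in the same way, 0 of the 9 genes passed at an adjusted p of 0.05 in any comparison, against 0% of all genes tested. At an unadjusted p under 0.05 there were 3 of 9 in 8w over 3d, beside 13.8% of all genes, 2 of 9 in 8w over E18, beside 12.1%, and 1 of 9 in 3d over E18 (Cdc7), beside 3.4%. DESeq2 called 0 of the 9 on split reads in each comparison, beside 13 of all genes in 8w over E18 and 0 in the others. At an unadjusted p under 0.05 DESeq2 had 1 of 9 in 8w over 3d, beside 240 of 2174 genes. It had 1 of 9 in 8w over E18, beside 279, and 0 of 9 in 3d over E18, beside 134. Reads say little here, as 1 of 100 genes simulated with a 64-fold rise in the adult was called. The circle with the most reads held 75.6% of the reads of Coq7 and 22.1% to 46.4% in the other 9 genes. Over the 66 circles the library with the most reads held a median of 94.6% of a circle's reads, against 100% in the other genes of at least 20 kb. A circle in 1 library has 100% by definition. The 2 medians therefore differ through the shares of circles in 2 or more libraries, which are part of how the genes were chosen.

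**Figure D4:**
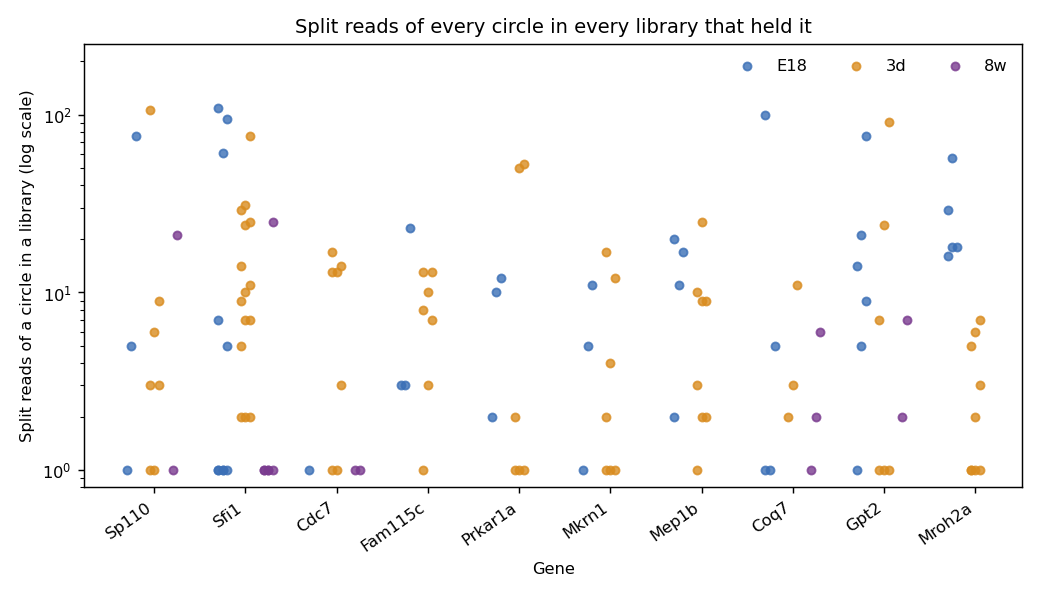
Split reads (vertical axis, log scale) of every circle in every library that held it, by gene and stage, 1 point per circle and library. Among the highest points are Sp110 at 106 reads in a 3d library, and Sfi1 at 109 and Coq7 at 99 in an E18 library.

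The median length of the 66 circles was 370.5 bp, against 372 bp in the other genes of at least 20 kb. Of the 66, 34 (51.5%) were of 250 to 450 bp, against 42.9% in the other genes, and 12 (18.2%) were under 250 bp, against 24.8%. The shortest was a circle of 59 bp in Mkrn1 (39403953 to 39404011, 12 reads in 3d replicate 2). Along the genes, the 5 equal parts from start to end held 11, 12, 17, 15 and 7 of the 62 circles of up to 100 kb, while the other genes held 19.9% to 20.1% of theirs in each part. Of the 62 circles 11 (17.7%) overlapped another circle, against 5.40% in the other genes. Overlap grows with the number of circles per length, so this share follows in part from how the genes were chosen. They formed 7 overlapping pairs in Sp110, Fam115c, Prkar1a, Coq7 and Mep1b, and the 2 circles of 6 of these pairs were together in at least 1 library. The pair of Prkar1a, of 398 and 224 bp (109655281 to 109655678 and 109655313 to 109655536), was together in E18 replicate 2 and 3d replicate 3.

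Of the 66 circles, 4 (6.1%) were longer than 100 kb, against 2.8% in the other genes of at least 20 kb. These 4 took in the whole gene with many others. A circle of 5.58 Mb on chromosome 6 (39492846 to 45074564, 3 reads in E18 replicate 3) covered 86 genes of the table, Fam115c among them. Circles of 7.59 Mb (32617243 to 40202828, 18 reads in 2 neonatal libraries) and 3.67 Mb (37441881 to 41114346, 5 reads in E18 replicate 1) on the same chromosome covered Mkrn1. A circle of 8.68 Mb on chromosome 8 (82022280 to 90700973, 7 reads in 3d replicate 3) covered Gpt2. Only a junction was seen for these, not the length between. The whole table held 79 distinct circles over 100 kb, and such a circle is counted in every gene that it overlaps. Without them Mkrn1 had 309 circles per Mb and ranked 24, against rank 6 with them, and the other 9 genes stayed among the 10 densest.

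The sequence beside a gene was not used to choose it, and beside these genes its density ran from low to high. In the 50 kb on each side, leaving out circles that touch the gene or exceed 100 kb, the median over all 8953 genes was 70.0 circles per Mb, and the median of the 10 genes was 75, with 5 of the 10 above 70.0. Fam115c had 20, Sfi1 40 and Mep1b 50 circles per Mb beside it, and 1.80% of genes lay below Fam115c. Prkar1a had 160.0 per Mb, with 97.5% of genes below.

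Mroh2a differed, as its surroundings were denser than the gene itself. The 50 kb on each side held 26 distinct circles, 58 summed over libraries, or 580.0 per Mb, the highest of all 8953 genes. The side of higher coordinates (88262290 to 88312289) held 47 of the 58, with 6, 1 and 7 at E18, 13, 3 and 9 at 3d, and 3, 1 and 4 at 8w, and the other side 11. Without 3d replicate 1, which held 13 of the 47, 34 remained. Adult circles, absent from Mroh2a, were thus present beside it. Hjurp, a chaperone of centromeric histone (88262471 to 88277633, 15.2 kb), held 22 circles summed over libraries (7 distinct), or 1451 per Mb. It was too short to be ranked. Trpm8, on the side of higher coordinates (112 kb), held 30 summed in the same way (16 distinct), or 269 per Mb. Ugt1a1, which conjugates bilirubin (7.04 kb, on the other side), held 8 (4 distinct). These 3 neighbours were named after their values had been seen. In Mroh2a and its flanks 25 of 34 distinct circles were in 2 or more libraries, and 2 pairs had both ends within 2 bp of each other, with 34 and 35 reads and with 6 and 6 reads. Whether such a pair is 1 circle was not tested.

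**Figure D5:**
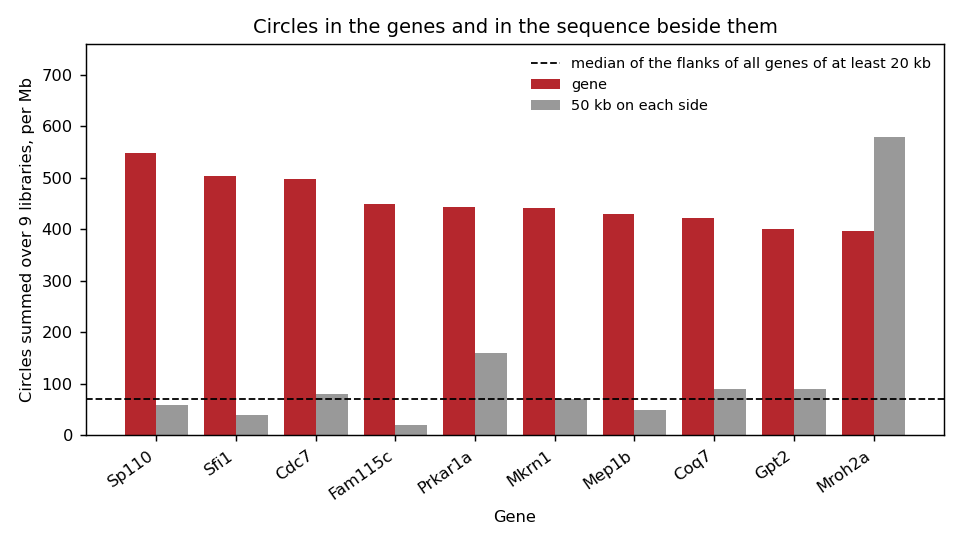
Circles summed over the 9 libraries per Mb, in the 10 genes (red) and in the 50 kb on each side of them (grey), with a dashed line at the median of the flanks of all genes of at least 20 kb, 70.0 per Mb. The flanks of Mroh2a reach 580.0 per Mb, above the gene, and the others lie between 20 and 160.0 per Mb.

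Relatives and partners of the 10 genes were listed as a comparison, with their circles summed over the 9 libraries. Of 49 gene symbols listed, among them both Coq8a and Adck3, 38 had a circle in the table. The 27 of these of at least 20 kb ran from 16.3 to 256 circles per Mb, with a median of 71.3. The highest was Prkaca, the catalytic subunit held by Prkar1a, with 6 circles. Dbf4, the partner of Cdc7, had 1 circle, against 10 in Cdc7 summed in the same way. Sp100 and Sp140, of the family of Sp110, had 3 and 6, against 12 in Sp110. Only Pdss2, of ubiquinone synthesis like Coq7, had the 10 circles needed for the test, with 20 circles in 243 kb, and it did not pass in any comparison. Among the shorter relatives, Mcm7 of the replicative helicase that Cdc7 phosphorylates had 5 circles in 7.84 kb, all at 3d. In their share of circles by library, the 10 genes together were nearest to Cachd1, Grip1 and Fry among 778 genes with at least 20 circles. The distance, which is the sum of absolute differences over the 9 shares divided by 2, was 0.0682, 0.0698 and 0.0909, against a median of 0.242 over the 778 genes. These 3 genes are long and lie far lower in density, at 79.2, 136 and 92.5 circles per Mb.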

How the data were processed

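Circle-seq was run on 9 heart libraries, 3 each at E18, 3d and 8w. Per the submitters' notes on processing, the tools were BWA 0.7.12, cutadapt 1.9.1, bedtools 2.27.1, SAMtools 1.9 and edgeR (given there as 0.6.9), and the builds GRCm38 and mm10. Circle-Map found the circles, per the file headers; its version and settings were not given in the sources used here. A table deposited by the authors holds split read counts per circle and library, which were used here. Its deposited log2 values, normalized with edgeR by the authors, equal 3.01 at a count of 0 and were used only as a check. The deposited circle length in bp and overlap with a gene in bp were taken as given.

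Circles were counted per gene of the table's annotation and library, and gene length is end minus start plus 1. Genes with at least 10 circles were fitted with edgeR 4.0.16 (R 4.3.3), TMM scaling, library totals of all circles or split reads, stage as the only term, and Benjamini-Hochberg adjustment over 2174 genes. DESeq2 1.42.0 was an alternative. The SE is the change divided by the normal quantile of its p. The fit was tested on simulated data. Other tools were Python 3.11.15, pandas 2.3.3, matplotlib 3.10.9 and bedtools 2.31.1. Promoter sequences and gene spans were from RefSeq GRCm38.p6. Of the 10 genes, 10 matched by symbol or synonym.

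Libraries held 11377 to 846374 split reads. Floors for a count of 0 (3 counts) reflect counting error alone, because reads of amplified DNA are no independent molecules. Same-numbered libraries of different stages did not deviate together (9 correlations from -0.04 to 0.01), so the numbers were not taken to pair samples.

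The members and lists were chosen with earlier results of these data known. The text names the 10 genes, the 3 next in density, the 3 most alike over libraries, and relatives of the members, and for each gene the circle in the most libraries (ties by split reads) and that with the most reads. No genome sequence was used here, so exons, introns, GC content and repeats were not analysed here, and only promoter windows are printed.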

Additional observations from a re-analysis of the deposited data

How the results depend on the processing

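Of the 10 genes, 4 were still among the 10 densest with distinct circles counted once, 4 with 2 or more reads per circle, 1 among genes of at least 10 kb, 0 among genes of any length, 9 with RefSeq gene spans, and 9 without circles over 100 kb (chosen after seeing the data). Leaving out single libraries it was 7 to 10. The gene lost with RefSeq gene spans was Sp110, the densest in the reported order, which fell to rank 12. The number of the 10 that could be tested dropped to 4 with 2 or more reads, to 2 without 3d replicate 1 and to 1 with at least 20 circles.

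No setting called any of the 10 genes, on circles or split reads, the replicate block (0 calls) included. Over all genes, split reads gave 13 calls in 8w over E18 with DESeq2, 1 with all genes that have a circle, and 2 in 8w over 3d with all such genes, against 0 in the reported fit. At an unadjusted p under 0.05, circles in 8w over 3d gave 283 genes in the reported fit, 100 with library totals alone and 35 with DESeq2. The replicate block changed no call. Without 3d replicate 1 and without 3d replicate 3, 7 of the 10 stayed among the densest.

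Of 236 other values for single genes 218 kept the sign relative to the median and 18 did not, all uncalled, and the cause was not tested. Signs were judged after rounding to 2 decimals, with a value of 0 counted as kept, as for Mep1b in 3d over E18 with the replicate block (-0.0034). In 3d over E18 DESeq2 gave -0.17 for Fam115c, -0.10 for Mep1b and 0.53 for Mroh2a, the replicate block 0.49 for Mroh2a, and 2 or more reads 0.81 for Sfi1 and -0.0104 for Mep1b. With 2 or more reads, 8w over 3d was -1.54 for Sfi1, while 8w over E18 was -0.76 for Sfi1 and 0.085 for Gpt2. Leaving out single libraries, 3d over E18 ran from -1.08 to 0.12 for Sfi1, -0.0429 to 0.21 for Mkrn1, -0.52 to 0.18 for Mep1b and -0.39 to 0.53 for Mroh2a. Sp110 ran from -3.01 (without 8w replicate 3, its sole adult library) to 1.66 for 8w over 3d. In 8w over E18 its range was -2.85 to 1.98, while Sfi1 ran from -0.18 to 1.31 and Gpt2 from -0.93 to 1.05. Other values did not turn but moved: in 8w over 3d Sfi1 ran from 0.21 (without 8w replicate 1) to 1.58 and Gpt2 from 0 (without 8w replicate 1) to 1.86, Cdc7 reached 1.66, and in 3d over E18 Coq7 was -0.51 without 3d replicate 3. The highest of these 8w over 3d values were without 8w replicate 2. The adult libraries had 11377, 194280 and 67182 split reads in 8w replicates 1 to 3, and whether depth moved these values was not tested.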
